A study of Macaca fascicularis with 7 samples.

Results

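The genes described here encode the factors that start and elongate protein synthesis, taken as every gene whose symbol begins with EIF or EEF. The 4 eIF2 kinase genes, whose symbols begin with EIF2AK, were left out of that choice. The choice gave 55 of the 28161 genes counted, spread over 19 chromosomes, and 54 of the 55 passed the filter on low counts. Poly(A) RNA was counted per gene in oocytes of the cynomolgus monkey, Macaca fascicularis, all labelled wild type. In vitro matured metaphase II oocytes (IVM MII, labelled as treated) gave 3 libraries, in vivo matured metaphase II oocytes (IVO MII, labelled as control) gave 2, and germinal vesicle oocytes (GV, labelled as control) gave 2. GV oocytes are arrested in the first meiotic prophase, and MII oocytes have completed maturation and await fertilisation. The labels give neither the animals' age nor the number of oocytes per library, and do not say which libraries share an animal. A p-value here therefore reflects the spread between libraries alone, and that spread may be technical. The design asks how oocytes matured in culture differ in gene expression from those matured in the animal, and how both differ from the immature oocyte.

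Translation of most mRNAs begins when eIF4E binds the 5′ cap and recruits the scaffold eIF4G and the helicase eIF4A. The small ribosomal subunit arrives with eIF1, eIF1A, eIF3, eIF5 and the eIF2 complex, which carries the initiator tRNA, and eIF5B then joins the large subunit. The eEF1 factors bring aminoacyl-tRNAs to the ribosome, and eEF2 moves it along the mRNA. A fully grown oocyte makes little new RNA, and maturation relies on translating stored mRNAs whose poly(A) tails and cap-bound repressors set when each one is used.

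Library totals ranged from 22901970 to 29245733 counts. Levels are given as CPM, counts scaled to a common library size that was adjusted by the trimmed mean of M values (TMM). The TMM factors were 1.423 and 1.382 in GV libraries and 0.766 to 0.985 in MII libraries. CPM are relative, so fewer molecules of a gene and more RNA of other genes cannot be told apart. All 11 oocyte marker genes checked reached 1 CPM in each group, with summed levels of 8413 to 17564 CPM in IVM MII, 7937 to 10219 CPM in IVO MII and 12171 to 14520 CPM in GV libraries. Of 12 cumulus and granulosa markers 10 were counted, and their summed level was 97.2 to 217 CPM in IVM MII, 60.1 to 92.1 CPM in IVO MII and 17.8 to 19.3 CPM in GV libraries, with FSHR, HAS2 and TNFAIP6 holding nearly all of it and AMH, PTX3 and PTGS2 at 0 counts in all 7 libraries. The 8 stroma and endothelium markers summed to 60.8 to 89.8 CPM in IVM MII, 88.5 to 127 CPM in IVO MII and 1081 to 1212 CPM in GV libraries, with VWF alone at 991 and 1140.1 CPM in the GV libraries and COL3A1 and LUM at 0 counts in all 7. Of 6 blood and immune markers 5 were counted, and they summed to at most 1.12 CPM in any library. The marker sums differed between groups, and their part in the differences below was not tested. The labels list the GV files under a different folder from the MII files, and for comparisons with GV the effect of that folder and of the group cannot be told apart.

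Together the 55 genes took a larger share of the MII than of the GV libraries. They made up 1.13%, 1.21% and 1.00% of the counts of the IVM MII libraries, 0.911% and 0.923% of those of the IVO MII libraries, and 0.685% and 0.756% of those of the GV libraries. No library of one group reached the range of another. The larger MII share rested on EIF5B, EIF4G2, EIF4A2 and EIF1. They held 58.9% ± 0.629 of the counts of all 55 genes in IVM MII libraries, 66.6% ± 3.99 in IVO MII libraries and 31.4% ± 0.635 in GV libraries (SD, n = 3, 2 and 2). The other genes together took no larger share of any MII library than of the higher GV library. Of both IVO MII libraries they took a smaller share than of either GV library. The 4 genes were picked for the highest mean CPM over all 7 libraries, 5 of which are MII, so these contrasts follow in part from the choice. EIF1 ranked lower within IVM MII and within GV. At 1 CPM or more, 46 to 50 of the 55 genes were detected in an IVM MII library, 47 and 48 in the IVO MII libraries and 53 in each GV library. EEF1A2, the eEF1A form typical of muscle and neurons, was the gene that failed the filter. It had 0 counts in the 3 IVM MII libraries, 0 and 2 in the IVO MII libraries and 1 and 0 in the GV libraries, under the floor of 3 counts that stood for non-detection, which is 0.0907 to 0.161 CPM.

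**Figure D1:**
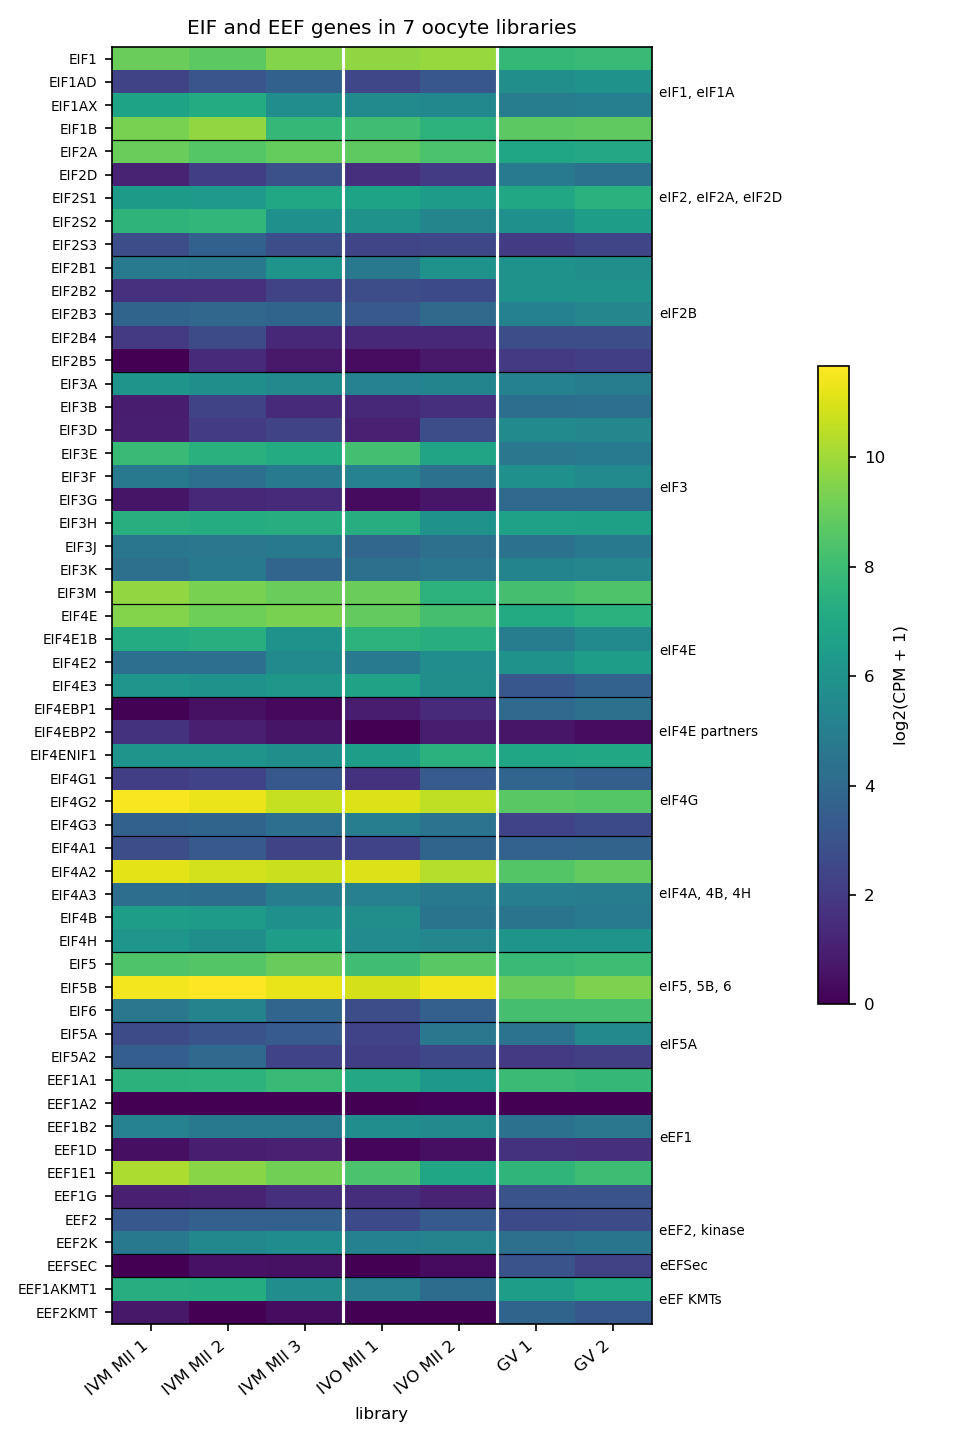
Level of each of the 55 genes (rows, ordered by role) in the 7 libraries (columns, IVM MII, IVO MII and GV from left to right), coloured by log2(CPM + 1). EIF5B, EIF4G2 and EIF4A2 are the brightest rows in MII libraries, and the EIF6 row is bright in GV libraries only, at 296 and 300.4 CPM.

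Changes are given as log2 fold ± standard error (SE) from edgeR's quasi-likelihood test on 16374 genes, and those with a Benjamini-Hochberg adjusted p under 0.05 count as called. In IVM MII over GV, 27 of the 54 genes were called, where 36.3% of all genes were. Of the 54, 13 were higher, beside 18.5% of all genes, and 14 were lower, beside 17.8% of all genes. In IVO MII over GV, 22 of the 54 were called, where 28.1% of all genes were. There 10 were higher, beside 14.6% of all genes, and 12 were lower, beside 13.5% of all genes. The median log2 change of the 54 genes was 0.12 in IVM MII over GV and -0.48 in IVO MII over GV, beside -0.10 and -0.16 over all genes. Both comparisons use the same 2 GV libraries. More of the 54 genes had no overlap between the libraries of the groups compared than were called. How many of all genes had none was not counted, so a lack of overlap with GV is given below as a description only. With library totals left unscaled by TMM, IVM MII over GV had 7 higher and 20 lower calls, beside 9.82% and 25.5% of all genes. IVO MII over GV then had 9 higher and 18 lower calls, beside 8.18% and 19.1%. The median of all genes moved to -0.80 and -0.78 in these comparisons. The median of the 54 genes then stood at -0.61 and -1.07. In IVM MII over GV that median lay between -0.61 and 0.22 over the settings, and was also below 0 with RLE scaling (-0.01), with DESeq2 (-0.03) and without the first GV (-0.09), the second IVM MII (-0.04) or the third IVM MII library (-0.02).

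The counts depend on the GV libraries, of which there are 2. Without the first GV library, the calls were 7 higher and 6 lower in IVM MII over GV, beside 5.5% and 6.72% of all genes, and 3 higher and 5 lower in IVO MII over GV, beside 3.77% and 4.83%. Without the second, the counts were 7 higher and 7 lower in IVM MII over GV, beside 7.19% and 7.51% of all genes, and 6 higher and 5 lower in IVO MII over GV, beside 4.96% and 4.84%. Leaving out the second IVM MII library left 9 lower in IVM MII over GV, beside 13.7% of all genes, and leaving out the first IVO MII library left 7 lower in IVO MII over GV, beside 8.12%. The shares of all genes called thus fell together with the counts. Calls that passed in all 15 alternative settings are said below to hold in all settings. In IVM MII over GV these were 7 of the 13 higher and 6 of the 14 lower calls, and in IVO MII over GV 3 of the 10 higher and 5 of the 12 lower calls. How many of all called genes held in all settings was not counted. Whether the calls of these genes held more often than those of other genes is therefore not known.

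**Figure D2:**
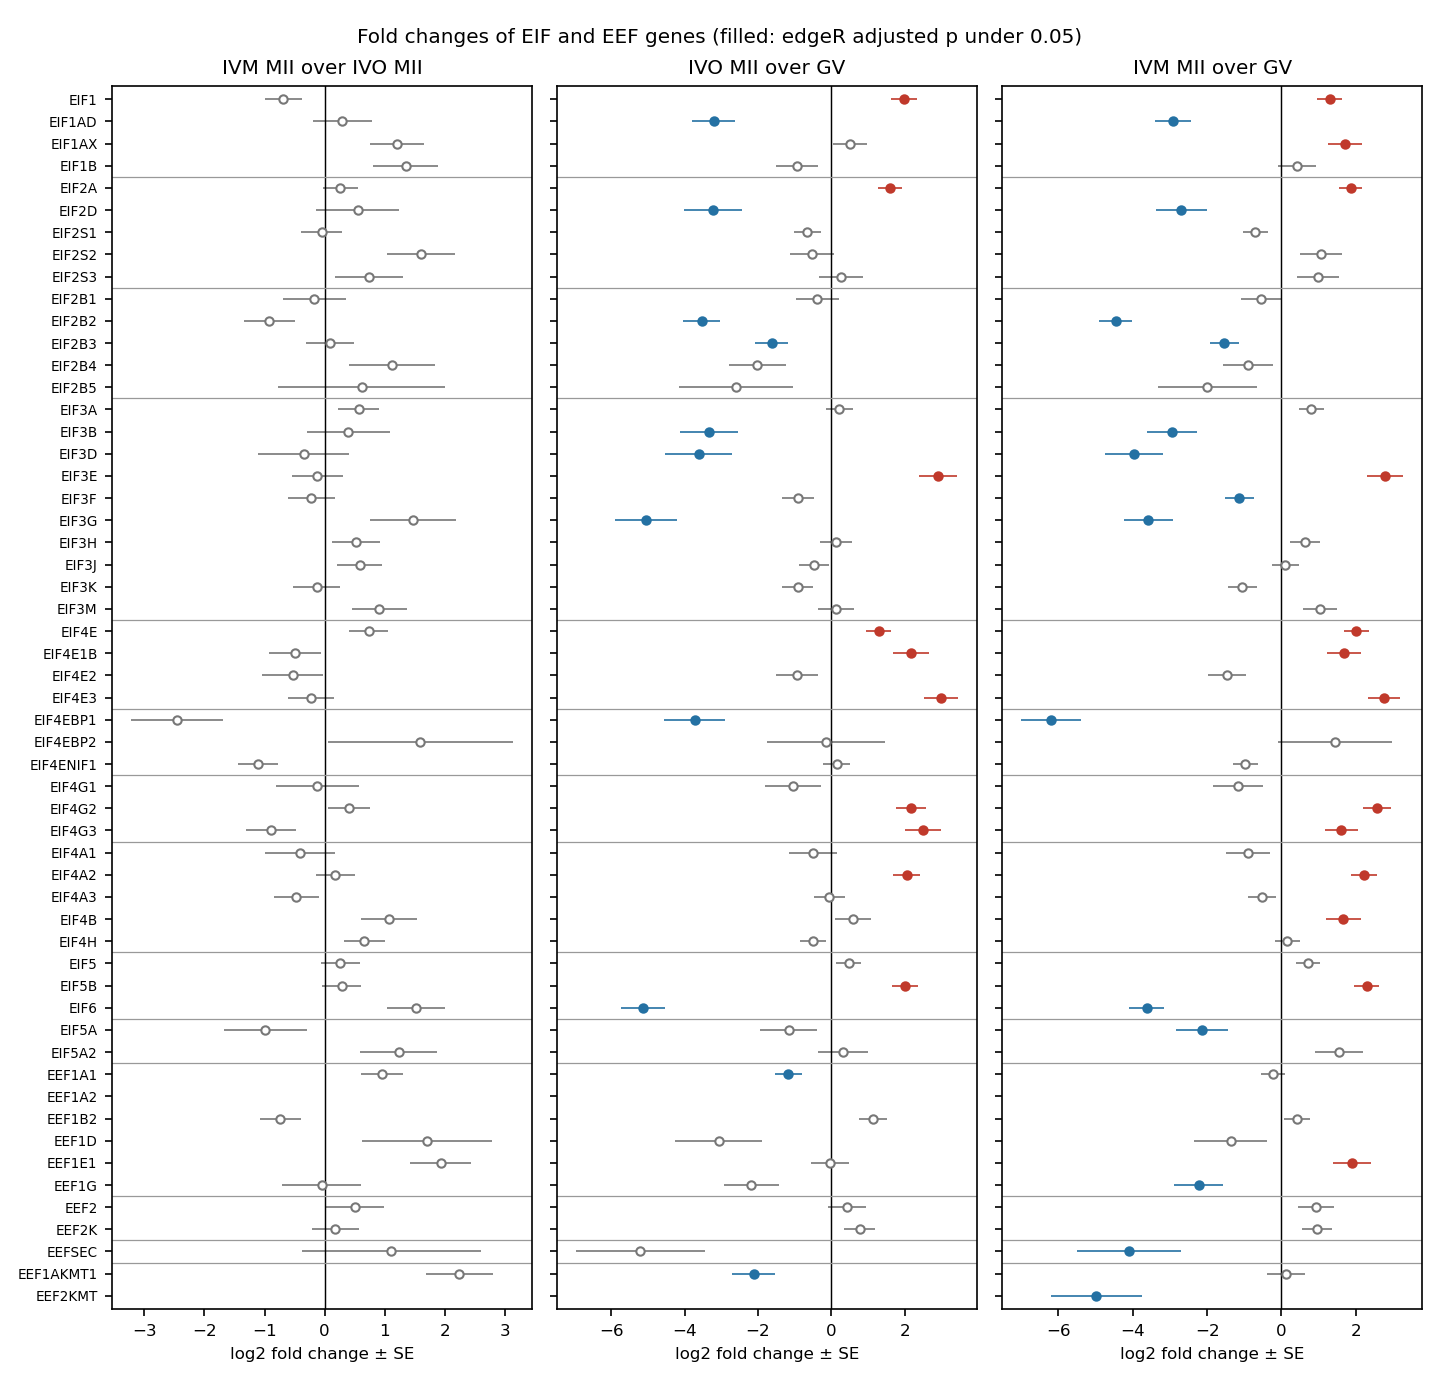
Log2 fold change ± SE of each gene (rows, ordered by role) for IVM MII over IVO MII, IVO MII over GV and IVM MII over GV, with filled points for adjusted p under 0.05 and horizontal scales that differ between panels. No point is filled for IVM MII over IVO MII; EEF1A2 was not tested, and EEF2KMT has no point in comparisons with IVO MII, where it had 0 counts.

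Per kb of gene length, EIF4A2 had the highest mean level of the 55 genes in IVM MII (1039 CPM per kb) and in IVO MII (916 CPM per kb), and EIF1B had it in GV (459 CPM per kb). EIF4A2, one of a pair of closely related eIF4A helicases, lies at chr2:10661022-10667305 in the deposited table's coordinates, whose genome build is not given in the sources used here. It had 2329, 1856 and 1707 CPM in IVM MII libraries and 2130.2 and 1332 CPM in IVO MII libraries, against 373 and 461 CPM in GV libraries. Every MII library was above both GV libraries, with a log2 change of 2.23 ± 0.35 in IVM MII over GV (adjusted p = 0.0025) and 2.05 ± 0.37 in IVO MII over GV (adjusted p = 0.00519). The IVM MII call held in all settings, and the IVO MII call was lost without the first GV library (adjusted p = 0.0564). Per kb of gene length, EIF4A2 made up 99.7% ± 0.134 of the combined level of EIF4A1 and EIF4A2 in IVM MII, 99.4% ± 0.573 in IVO MII and 97.0% ± 0.360 in GV libraries. EIF4A1 itself had 4.17 to 8.66 CPM in IVM MII, 4.03 and 12.6 CPM in IVO MII and 11.6 and 12.0 CPM in GV libraries, and was not called. The strand setting of the counts is likewise not given, and exons of EIF4A2 overlap those of RFC4 on the opposite strand.

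The scaffold gene with the highest level was EIF4G2, which encodes DAP5, an eIF4G relative that lacks the eIF4E-binding site and serves initiation without eIF4E (chr14:56982582-56994307). EIF4G2 had 2966, 2543 and 1585 CPM in IVM MII libraries and 2088 and 1475 CPM in IVO MII libraries, against 410.2 and 381 CPM in GV libraries. The MII and GV libraries did not overlap, and the calls in IVM MII over GV (2.58 ± 0.38, adjusted p = 0.00218) and in IVO MII over GV (2.17 ± 0.40, adjusted p = 0.00561) held in all settings. EIF4G1, the scaffold of cap-dependent initiation in most cells, had 3.54, 4.06 and 8.31 CPM in IVM MII libraries and 2.24 and 9.25 CPM in IVO MII libraries, against 13.2 and 10.6 CPM in GV libraries, and was called in neither comparison. EIF4G3, the second scaffold that binds eIF4E, had 11.3, 12.5 and 18.1 CPM in IVM MII libraries and 30.6 and 21.1 CPM in IVO MII libraries, against 4.05 and 5.09 CPM in GV libraries. It was higher in IVM MII over GV by 1.61 ± 0.45 (adjusted p = 0.0238), a call lost in 4 settings, and in IVO MII over GV by 2.50 ± 0.49 (adjusted p = 0.00733), a call lost in 2. Both calls were lost when either GV library was left out, and the first also with unscaled library totals (highest adjusted p = 0.205 and 0.0848). Per kb, EIF4G2 made up 99.6% ± 0.305 of the level of the 3 scaffold genes in IVM MII, 99.2% ± 0.206 in IVO MII and 97.8% ± 0.0739 in GV libraries.

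Of the 4 cap-binding eIF4E genes, 3 were higher than in GV in IVM MII, beside 18.5% of all genes, and 3 in IVO MII, beside 14.6%. EIF4E, the general cap-binding factor (chr5:98097195-98148343), had 714, 548 and 645 CPM in IVM MII libraries and 466 and 301 CPM in IVO MII libraries, against 139 and 175 CPM in GV libraries. It rose by 2.02 ± 0.34 in IVM MII over GV (adjusted p = 0.00303), a call that held in all settings. In IVO MII over GV it rose by 1.29 ± 0.35 (adjusted p = 0.0254), a call lost in 4 settings, among them each GV library left out (highest adjusted p = 0.209). EIF4E1B, an eIF4E form expressed mainly in oocytes (chr6:176420452-176424274), had 143, 156 and 61.3 CPM in IVM MII libraries and 187 and 151 CPM in IVO MII libraries, against 29.4 and 45.4 CPM in GV libraries. The third IVM MII library lay nearest to GV, though still above it. EIF4E1B rose by 1.68 ± 0.46 in IVM MII over GV (adjusted p = 0.0224) and by 2.17 ± 0.50 in IVO MII over GV (adjusted p = 0.0136), and lost these calls in 5 and 3 settings, either GV library left out among them (highest adjusted p = 0.183 and 0.115). EIF4E3, an atypical cap-binding member of the family, had 68.0, 60.6 and 71.5 CPM in IVM MII libraries and 104 and 52.6 CPM in IVO MII libraries, against 7.95 and 11.8 CPM in GV libraries. Its log2 changes of 2.76 ± 0.43 in IVM MII over GV (adjusted p = 0.0025) and 2.99 ± 0.46 in IVO MII over GV (adjusted p = 0.0032) held in all settings.

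EIF4E2, known as 4EHP, binds the cap without eIF4G and represses translation. It had 18.1, 18.0 and 46.2 CPM in IVM MII libraries and 27.6 and 51.6 CPM in IVO MII libraries, against 61.8 and 88.9 CPM in GV libraries, and was not called, with an adjusted p of 0.052 in IVM MII over GV. The balance within the family can be read from levels per kb of gene length. EIF4E2 took 2.87% ± 2.12 of the combined level of the 4 genes in IVM MII, 4.38% ± 2.63 in IVO MII and 22.0% ± 0.526 in GV libraries. EIF4E1B took 35.6% ± 12.6 in IVM MII, 54.7% ± 2.64 in IVO MII and 33.7% ± 2.45 in GV libraries. EIF4E took 57.5% ± 9.86 in IVM MII, 36.1% ± 3.94 in IVO MII and 42.5% ± 3.05 in GV libraries. These shares are descriptions and were not tested.

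**Figure D3:**
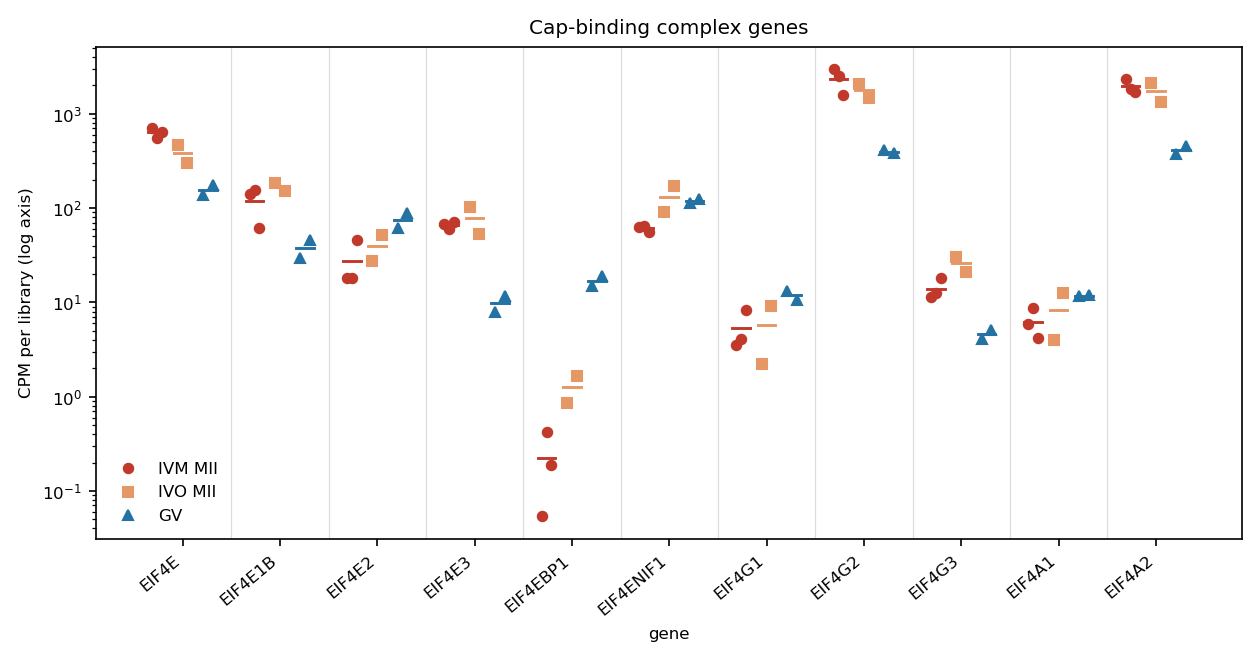
CPM per library (log axis) of 11 genes of the cap-binding complex and its repressors, with circles for IVM MII, squares for IVO MII and triangles for GV libraries and a bar at each group mean. EIF4G2 and EIF4A2 lie above 1000 CPM in every MII library, and EIF4EBP1 lies under 2 CPM in every MII library, against 14.9 and 18.8 CPM in GV libraries.

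The genes of the proteins that hold eIF4E back did not move together. EIF4EBP1, which encodes the mTOR-controlled repressor 4E-BP1 (chr8:38838889-38871454), had 0.0537, 0.423 and 0.188 CPM in IVM MII libraries, from 1, 10 and 5 counts, and 0.866 and 1.66 CPM in IVO MII libraries, against 14.9 and 18.8 CPM in GV libraries. All MII libraries were under both GV libraries, and all IVM MII libraries were under both IVO MII libraries. EIF4EBP1 was lower in IVM MII over GV (-6.19 ± 0.81, adjusted p = 0.00162), which held in all settings, and in IVO MII over GV (-3.73 ± 0.84, adjusted p = 0.0128), which was lost without either GV library or the first IVO MII library (highest adjusted p = 0.0876). EIF4EBP2, the second repressor of this kind, had 2.31, 1.01 and 0.602 CPM in IVM MII libraries and 0 and 0.848 CPM in IVO MII libraries, against 0.635 and 0.316 CPM in GV libraries, and these overlapping values passed no test. EIF4ENIF1, which encodes 4E-T, an eIF4E partner that shuttles it and represses stored mRNAs in oocytes, had 63.7, 64.2 and 55.5 CPM in IVM MII libraries and 90.5 and 173 CPM in IVO MII libraries, against 114 and 126 CPM in GV libraries. It was not called in IVM MII over GV (-0.97 ± 0.34, adjusted p = 0.0532), and its exons overlap those of SFI1 on the opposite strand.

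Of the remaining helicase cofactors, EIF4B, which stimulates eIF4A, rose in IVM MII over GV. It had 92.6, 84.4 and 57.2 CPM in IVM MII libraries and 52.6 and 21.6 CPM in IVO MII libraries, against 21.3 and 28.2 CPM in GV libraries. The IVO MII libraries overlapped the GV range. The call in IVM MII over GV (1.66 ± 0.47, adjusted p = 0.0248) was lost in 5 settings, among them either GV library, the first or the second IVM MII library left out and unscaled library totals (highest adjusted p = 0.188). EIF4H, a related cofactor, and EIF4A3, the helicase of the exon junction complex, were not called.

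The gene with the highest mean CPM of the 55 was EIF5B, which encodes the GTPase that joins the ribosomal subunits (chr13:3659127-3732769). EIF5B had 2784, 3248 and 2464 CPM in IVM MII libraries and 1902 and 2754 CPM in IVO MII libraries, against 491 and 667 CPM in GV libraries. The lowest MII library was well above the higher GV library, with a log2 change of 2.29 ± 0.34 in IVM MII over GV (adjusted p = 0.0022), held in all settings, and 2.01 ± 0.36 in IVO MII over GV (adjusted p = 0.00507), lost without the first GV library (adjusted p = 0.0584). EIF6, whose product keeps the large subunit from joining too early (chr10:66747554-66753423), went the other way. It had 23.3, 35.9 and 13.0 CPM in IVM MII libraries and 5.71 and 11.0 CPM in IVO MII libraries, against 296 and 300.4 CPM in GV libraries. EIF6 was lower in IVM MII over GV (-3.63 ± 0.48, adjusted p = 0.00163) and in IVO MII over GV (-5.15 ± 0.60, adjusted p = 0.0021), and these calls held in all settings. EIF5, the GTPase activator of eIF2, had 345 to 501 CPM in IVM MII, 269.5 and 412 CPM in IVO MII and 229 and 265 CPM in GV libraries, and was not called.

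Among the start codon factors, EIF1, which guards the fidelity of start codon choice (chr16:53359128-53361967), had 528, 421 and 724 CPM in IVM MII libraries and 853 and 946 CPM in IVO MII libraries, against 218 and 236 CPM in GV libraries. It was higher in IVM MII over GV by 1.30 ± 0.33 (adjusted p = 0.0158) and in IVO MII over GV by 1.99 ± 0.35 (adjusted p = 0.00521). The first call was lost without either GV library and with unscaled totals (highest adjusted p = 0.188), the second without the first GV library (adjusted p = 0.0579). Its close relative EIF1B had 647, 883 and 215 CPM in IVM MII libraries and 271 and 184 CPM in IVO MII libraries, against 421 and 451 CPM in GV libraries. EIF1B was not called, and the value of the third IVM MII library lay within the IVO MII range. Reads from EIF1 and EIF1B may be hard to tell apart where the copies are alike, so both are uncertain. Per kb, EIF1 made up 43.2% ± 23.5 of the level of the pair in IVM MII, 72.9% ± 6.77 in IVO MII and 26.2% ± 0.0879 in GV libraries, and the third IVM MII library, at 69.6%, lay within the IVO MII range.

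EIF1AX, on the X chromosome, encodes eIF1A, which works with eIF1 in scanning. It had 109, 143 and 51.6 CPM in IVM MII libraries and 45.1 and 42.6 CPM in IVO MII libraries, against 30.2 and 31.5 CPM in GV libraries, and was called in IVM MII over GV (1.71 ± 0.46, adjusted p = 0.0195). That call was lost in 5 settings, either GV library and the first or the second IVM MII library left out among them (highest adjusted p = 0.136). EIF1AD, named for its eIF1A-like domain, had 4.29, 7.31 and 11.4 CPM in IVM MII libraries and 4.54 and 7.98 CPM in IVO MII libraries, against 52.6 and 63.2 CPM in GV libraries. Its log2 changes of -2.92 ± 0.49 in IVM MII over GV (adjusted p = 0.00315) and -3.21 ± 0.58 in IVO MII over GV (adjusted p = 0.00544) held in all settings.

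The 3 subunit genes of eIF2, which delivers the initiator tRNA, were not called in the fit reported, and EIF2S2 is taken up below. EIF2S1 had 78.1 to 121 CPM in IVM MII, 84.4 and 109 CPM in IVO MII and 128 and 177 CPM in GV libraries, and EIF2S3, on the X chromosome, had 3.21 to 11.2 CPM over the 7 libraries. The genes of 2 proteins that can deliver initiator tRNA apart from eIF2 moved in opposite directions. EIF2A had 504, 382 and 485 CPM in IVM MII libraries and 432 and 331 CPM in IVO MII libraries, against 119.7 and 133 CPM in GV libraries. It rose by 1.86 ± 0.31 in IVM MII over GV (adjusted p = 0.00301), held in all settings, and by 1.60 ± 0.32 in IVO MII over GV (adjusted p = 0.00831), lost without either GV library (highest adjusted p = 0.0945). EIF2D had 1.18, 3.42 and 6.47 CPM in IVM MII libraries and 1.94 and 3.12 CPM in IVO MII libraries, against 27.9 and 19.8 CPM in GV libraries. It was lower in IVM MII over GV (-2.69 ± 0.68, adjusted p = 0.0158) and in IVO MII over GV (-3.23 ± 0.80, adjusted p = 0.0188). Those calls were lost in 2 and 4 settings, the first without the first GV or the second IVM MII library and the second without any 1 of the GV and IVO MII libraries (highest adjusted p = 0.105 and 0.0942). Exons of EIF2A overlap those of SERP1 on the opposite strand, and those of EIF2B1, EIF3J, EIF4E and EEF1E1 also overlap exons of an opposite-strand gene.

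Of the 5 subunit genes of eIF2B, which recharges eIF2 with GTP, 2 were lower in IVM MII over GV, beside 17.8% of all genes, and 2 in IVO MII over GV, beside 13.5%, and none was higher. EIF2B2 (chr7:139689969-139700447) had 2.20, 2.16 and 4.25 CPM in IVM MII libraries and 5.71 and 5.17 CPM in IVO MII libraries, against 63.6 and 63.2 CPM in GV libraries. It was lower in IVM MII over GV (-4.46 ± 0.45, adjusted p = 0.00127) and in IVO MII over GV (-3.54 ± 0.51, adjusted p = 0.00273), and these calls held in all settings. EIF2B3 had 12.6, 13.4 and 12.6 CPM in IVM MII libraries and 8.61 and 15.5 CPM in IVO MII libraries, against 33.8 and 41.0 CPM in GV libraries. Its log2 changes of -1.54 ± 0.39 in IVM MII over GV (adjusted p = 0.0159) and -1.63 ± 0.44 in IVO MII over GV (adjusted p = 0.0262) were lost without either GV library, and the second also without the first IVO MII library (highest adjusted p = 0.139 and 0.17). EIF2B1, the subunit gene with the highest level per kb in every library, had 27.0, 25.6 and 64.7 CPM in IVM MII libraries and 25.0 and 62.7 CPM in IVO MII libraries, against 61.3 and 53.0 CPM in GV libraries. These overlapping values were not called, and neither were those of EIF2B4 and EIF2B5, which stayed at or under 6.02 CPM in every library.

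The eIF3 complex, which binds the small subunit and holds the initiation machinery together, was represented by 10 of its subunit genes. In IVM MII over GV, 1 was higher and 4 were lower, beside 18.5% and 17.8% of all genes, and in IVO MII over GV, 1 was higher and 3 were lower, beside 14.6% and 13.5%. EIF3E (chr8:109298757-109408088) had 236, 168 and 144 CPM in IVM MII libraries and 286 and 111 CPM in IVO MII libraries, against 24.8 and 27.9 CPM in GV libraries. Every MII library was above the GV range, and the rises of 2.79 ± 0.48 in IVM MII over GV (adjusted p = 0.00341) and 2.91 ± 0.51 in IVO MII over GV (adjusted p = 0.00476) held in all settings. EIF3D, a subunit able to bind the cap of some mRNAs, had 0.966, 3.04 and 4.32 CPM in IVM MII libraries and 1.12 and 5.98 CPM in IVO MII libraries, against 46.2 and 41.6 CPM in GV libraries. It was lower in IVM MII over GV (-3.97 ± 0.78, adjusted p = 0.00569), held in all settings, and in IVO MII over GV (-3.62 ± 0.91, adjusted p = 0.0193), lost without either GV library or the first IVO MII library (highest adjusted p = 0.0669). EIF3G had 0.590, 1.44 and 1.65 CPM in IVM MII libraries and 0.255 and 0.617 CPM in IVO MII libraries, against 14.8 and 14.9 CPM in GV libraries, and its log2 changes of -3.58 ± 0.66 in IVM MII over GV (adjusted p = 0.00428) and -5.06 ± 0.84 in IVO MII over GV (adjusted p = 0.00406) held in all settings. Exons of EIF3G overlap those of P2RY11 on the opposite strand.

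EIF3B, a core scaffold subunit, had 0.912 to 4.27 CPM in IVM MII libraries and 1.48 and 2.04 CPM in IVO MII libraries, against 17.5 and 18.3 CPM in GV libraries. It was called lower in IVM MII over GV (-2.95 ± 0.67, adjusted p = 0.0106) and in IVO MII over GV (-3.34 ± 0.80, adjusted p = 0.0162), and both calls were lost without either GV library, the second also without the first IVO MII library (highest adjusted p = 0.059 and 0.0768). EIF3F had 25.5, 18.0 and 27.6 CPM in IVM MII libraries and 35.0 and 20.2 CPM in IVO MII libraries, against 57.7 and 46.0 CPM in GV libraries. Its call in IVM MII over GV (-1.13 ± 0.38, adjusted p = 0.0477) was lost in 5 settings, either GV library and the first or the second IVM MII library left out among them (highest adjusted p = 0.286). EIF3M, the subunit gene with the highest level per kb in every library, had 878, 638 and 505 CPM in IVM MII libraries and 528 and 187 CPM in IVO MII libraries, against 300.0 and 355 CPM in GV libraries, and was not called. Its exons overlap those of CCDC73 on the opposite strand, so the highest subunit level is uncertain. The other 4 subunit genes, EIF3A, EIF3H, EIF3J and EIF3K, were not called either.

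The levels of the eIF3 subunit genes lay further apart in MII than in GV oocytes. Per kb of gene length, the highest of the 10 was 2643-, 411- and 802-fold above the lowest in the IVM MII libraries and 1813- and 265-fold in the IVO MII libraries, against 47.1- and 62.0-fold in the GV libraries. The lowest subunit gene rested on 17, 101 and 46 counts in the IVM MII libraries and on 5 and 16 counts in the IVO MII libraries, against 578 and 900 counts in the GV libraries. The lowest was EIF3B in each IVM MII library and EIF3G in each IVO MII library. The median of the 10 subunits was 11.4 to 15.1 CPM per kb in IVM MII, 11.4 and 13.4 CPM per kb in IVO MII and 16.8 and 15.8 CPM per kb in GV libraries.

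**Figure D4:**
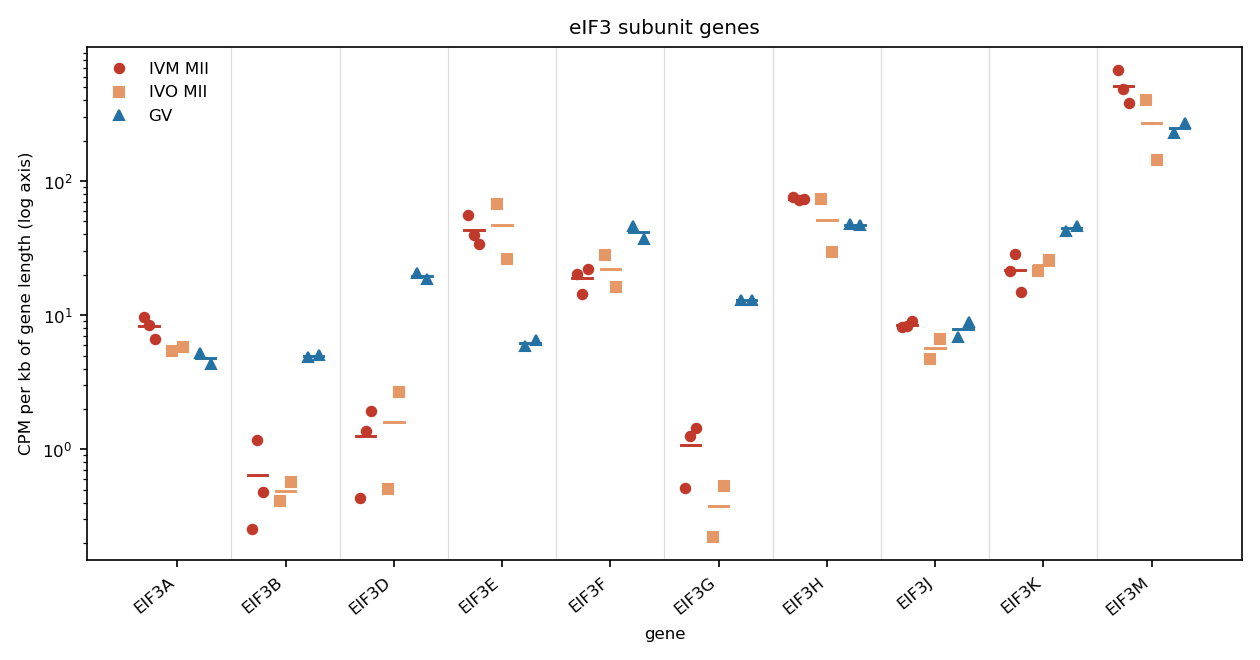
CPM per kb of gene length (log axis) of the 10 eIF3 subunit genes in each library, with circles for IVM MII, squares for IVO MII and triangles for GV libraries and a bar at each group mean. EIF3B, EIF3D and EIF3G lie lower in all MII than in both GV libraries, EIF3E lies higher in all MII libraries, and EIF3M is the highest subunit in every library.

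EIF5A, which helps ribosomes past difficult peptide bonds, and its relative EIF5A2 were low. EIF5A had 5.58, 7.02 and 9.18 CPM in IVM MII libraries and 4.08 and 24.8 CPM in IVO MII libraries, against 20.5 and 43.9 CPM in GV libraries. Its call in IVM MII over GV (-2.15 ± 0.70, adjusted p = 0.041) was lost without any 1 of the GV and IVM MII libraries (highest adjusted p = 0.268). EIF5A2 had 10.2, 14.7 and 4.14 CPM in IVM MII libraries and 3.41 and 4.82 CPM in IVO MII libraries, against 2.99 and 3.61 CPM in GV libraries, and was not called. Per kb, EIF5A2 took 33.5% ± 16.3 of the level of the pair in IVM MII, 15.6% ± 12.3 in IVO MII and 4.17% ± 1.59 in GV libraries. EIF5A has near-identical copies elsewhere in primate genomes, so its counts are uncertain.

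Of the 5 tested eEF1 genes, 1 was higher and 1 lower in IVM MII over GV, beside 18.5% and 17.8% of all genes. In IVO MII over GV 0 were higher and 1 was lower, beside 14.6% and 13.5%. EEF1A1, the general carrier of aminoacyl-tRNA and one of the most abundant mRNAs of most dividing cells (chr4:100395731-100402213), had 180.3, 185 and 229 CPM in IVM MII libraries and 132 and 72.6 CPM in IVO MII libraries, against 249 and 216 CPM in GV libraries. The IVM MII libraries overlapped the GV range and the IVO MII libraries lay under it. EEF1A1 was called lower in IVO MII over GV (-1.18 ± 0.37, adjusted p = 0.0441), but not in 6 of the 15 settings (highest adjusted p = 0.219). Those were either GV library, the second IVO MII library or the first or second IVM MII library left out, and a fit on the 2 groups alone. Its many processed copies make its counts uncertain. Of the exchange factor genes, EEF1B2 had 35.5, 25.6 and 25.4 CPM in IVM MII libraries and 52.5 and 43.8 CPM in IVO MII libraries. In GV libraries EEF1B2 had 19.3 and 24.3 CPM. It was not called in the fit reported, with 1.14 ± 0.39 in IVO MII over GV (adjusted p = 0.0559). EEF1G had 1.02, 1.27 and 2.11 CPM in IVM MII libraries and 1.89 and 1.16 CPM in IVO MII libraries, against 6.96 and 6.86 CPM in GV libraries, and was called in IVM MII over GV (-2.23 ± 0.65, adjusted p = 0.0273). It lost that call in 4 settings, without either GV library or the first or second IVM MII library (highest adjusted p = 0.176). EEF1D stayed at or under 2.30 CPM in every library and was not called.

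EEF1E1 bears the eEF1 name but encodes AIMP3, a scaffold protein of the multi-tRNA synthetase complex (chr4:162841563-162864856). EEF1E1 had 1191, 768 and 580.2 CPM in IVM MII libraries and 325 and 119.7 CPM in IVO MII libraries, against 195 and 259.6 CPM in GV libraries. All IVM MII libraries were above the other 4, and the IVO MII libraries spanned the GV range. It rose by 1.90 ± 0.51 in IVM MII over GV (adjusted p = 0.0198), a call lost with unscaled totals and without either GV library or the first IVM MII library (highest adjusted p = 0.139). EEF2, the translocase, had 8.32, 11.1 and 10.8 CPM in IVM MII libraries and 5.20 and 8.91 CPM in IVO MII libraries, against 5.20 and 5.38 CPM in GV libraries. EEF2K, the kinase that inhibits eEF2, had 25.0, 42.9 and 50.8 CPM in IVM MII libraries and 33.9 and 35.8 CPM in IVO MII libraries, against 18.5 and 22.4 CPM in GV libraries. Neither EEF2 nor EEF2K was called in any comparison.

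EEFSEC, the elongation factor for selenocysteine, and EEF2KMT, which methylates eEF2, were detected mainly in GV oocytes. EEFSEC had 0, 0.465 and 0.451 CPM in IVM MII libraries, from 0, 11 and 12 counts, and 0 and 0.270 CPM in IVO MII libraries, from 0 and 7 counts, against 6.84 and 3.98 CPM in GV libraries. It was called in IVM MII over GV (-4.10 ± 1.39, adjusted p = 0.047), a call lost when any 1 of the GV and IVM MII libraries was left out (highest adjusted p = 0.26). EEF2KMT had 13, 0 and 8 counts in IVM MII libraries and 0 counts in both IVO MII libraries, against 12.7 and 8.16 CPM in GV libraries. Set against the floor of 3 counts in each IVO MII library, it was at least 77.6-fold lower in IVO MII over GV, and its call there (adjusted p = 0.0098) held in all settings. In IVM MII over GV it fell by 4.98 ± 1.22 (adjusted p = 0.0169), a call lost without either GV library (highest adjusted p = 0.106). Exons of EEF2KMT overlap those of ALG1 on the opposite strand.

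EEF1AKMT1, a lysine methyltransferase of eEF1A (chr17:830195-867911), had 152, 146 and 51.5 CPM in IVM MII libraries and 32.9 and 16.5 CPM in IVO MII libraries, against 90.7 and 124 CPM in GV libraries. The IVM MII and GV ranges overlapped, and both IVO MII libraries lay under all the others. EEF1AKMT1 fell by 2.12 ± 0.58 in IVO MII over GV (adjusted p = 0.0276), a call lost without either GV library or the second IVO MII library (highest adjusted p = 0.117).

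When oocytes matured in culture were set against those matured in the animal, none of the 54 genes was called. Over all genes, 1.47% were called in IVM MII over IVO MII, with 0.892% higher and 0.58% lower. At an unadjusted p under 0.05 were 12 of the 54 genes, 10 of them higher and 2 lower in IVM MII, beside 3460 of all 16374 genes, 2013 higher and 1447 lower. The median log2 change was 0.34 over the 54 genes, beside 0.00 over all genes. How many of all genes had no overlap between IVM MII and IVO MII libraries was not counted. A lack of overlap is therefore given below as a description only. DESeq2 called 4 genes higher, beside 7.55% of all genes, and 2 lower, beside 4.95%. In limma voom 1 was higher, beside 1.7% of all genes. Without the third IVM MII library 6 were higher, beside 4.86% of all genes, and 0 lower, beside 3.03%.

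The smallest adjusted p was that of EEF1AKMT1, whose levels in IVM MII were all above those in IVO MII (2.24 ± 0.56, adjusted p = 0.078). EEF1E1 came next (1.93 ± 0.51, adjusted p = 0.088), again with no overlap. These were called in several of the other settings, among them, for EEF1AKMT1, DESeq2 (adjusted p = 0.0037), no filter on low counts (adjusted p = 0.0306) and the third IVM MII library left out (adjusted p = 0.0206). Among other settings, EEF1E1 was called in those 3, by limma voom and without the first IVO MII library (adjusted p = 0.0109 to 0.0498). EIF4EBP1 was lower in every IVM MII than in every IVO MII library (-2.46 ± 0.76, adjusted p = 0.12), and so was EIF4ENIF1 (-1.11 ± 0.34, adjusted p = 0.121). DESeq2 called both of these lower (adjusted p = 0.0146 and 0.0348), and no other setting did. EIF6 was higher in every IVM MII library (1.52 ± 0.49, adjusted p = 0.133), and DESeq2 called it (adjusted p = 0.037), as did the fit without the third IVM MII library (adjusted p = 0.0439). EEF2KMT had 0 counts in both IVO MII libraries and 13, 0 and 8 counts in the IVM MII libraries, so the groups overlapped. Its mean CPM in IVM MII was 2.48-fold the mean floor of the IVO MII libraries. The adjusted p was 0.185, and DESeq2 gave it as 0.037.

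Several of these differences rested on the first and second IVM MII libraries. EIF2S2, a subunit of eIF2, had 189, 213 and 57.0 CPM in IVM MII libraries, against 61.6 and 39.6 CPM in IVO MII libraries (1.60 ± 0.57, adjusted p = 0.164). The value of the third IVM MII library lay between the 2 IVO MII values. EIF1B (1.35 ± 0.54, adjusted p = 0.203) had the same pattern, with the third IVM MII library between the IVO MII libraries. EIF1AX (1.20 ± 0.45, adjusted p = 0.174) was higher in all 3, least so in the third. Without the third IVM MII library, the log2 changes were 1.98 for EIF2S2 (adjusted p = 0.0288), 1.74 for EIF1B (adjusted p = 0.0289) and 1.51 for EIF1AX (adjusted p = 0.0314). EIF4E (0.73 ± 0.32, adjusted p = 0.232), EIF4B (1.07 ± 0.46, adjusted p = 0.223) and EEF1A1 (0.95 ± 0.35, adjusted p = 0.169) were higher in every IVM MII than in every IVO MII library and were called in no setting.

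**Figure D5:**
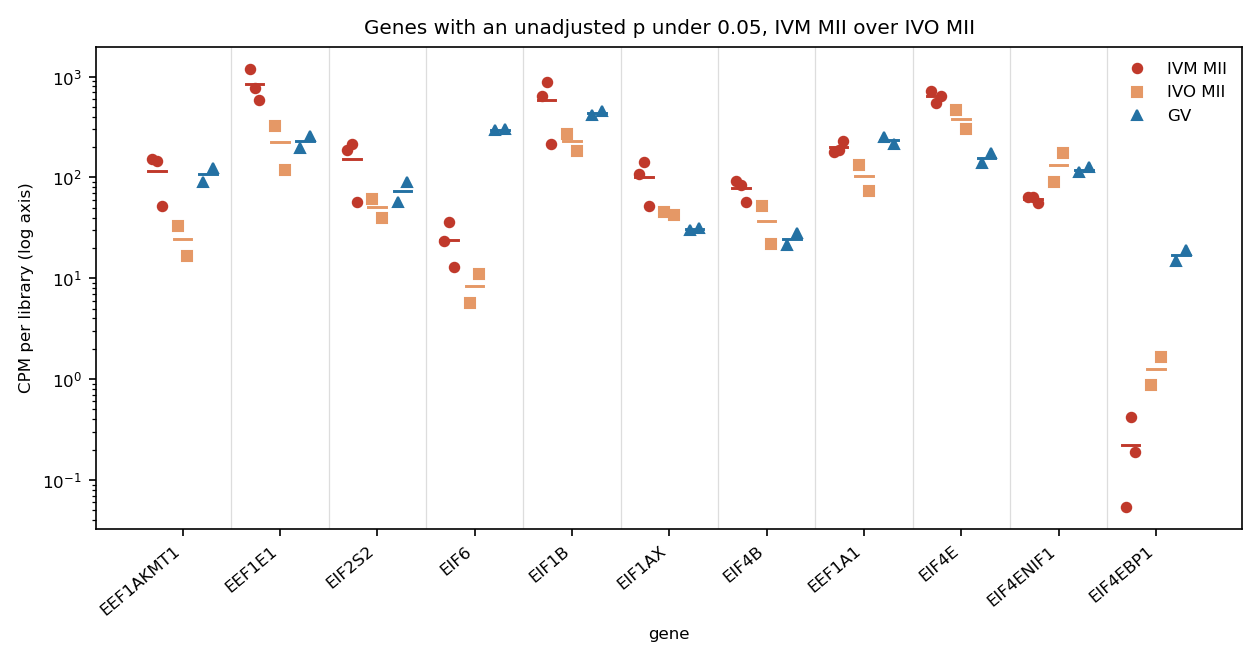
CPM per library (log axis) of 11 of the 12 genes with an unadjusted p under 0.05 in IVM MII over IVO MII (EEF2KMT, with counts of 0, is left out), with circles for IVM MII, squares for IVO MII and triangles for GV libraries and a bar at each group mean. EEF1AKMT1 had 51.5 to 152 CPM in IVM MII against 16.5 and 32.9 CPM in IVO MII libraries, and no gene shown passed the adjusted threshold in this comparison.

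Other genes of translation were read from 6 lists in the same fit. Their counts are to be read beside 36.3% of all genes called in IVM MII over GV, 18.5% higher and 17.8% lower, and 28.1% in IVO MII over GV, 14.6% higher and 13.5% lower. Of the 8 genes of the eIF2 kinases, the eIF2 phosphatase and their targets, 1 was higher and 2 were lower in IVM MII over GV, and 2 were higher and 2 lower in IVO MII over GV, in all 3 and 4 of the 8. ATF4, the transcription factor translated when eIF2 is phosphorylated, averaged 14.6 CPM in IVM MII, 7.76 CPM in IVO MII and 31.2 CPM in GV libraries (-1.09 ± 0.37, adjusted p = 0.0474, and -2.01 ± 0.43, adjusted p = 0.0101, over GV). Of 12 tested genes of mTOR, S6 kinase and MNK signalling, 1 was higher and 1 lower in IVM MII over GV, RHEB and MLST8, and 1 was higher in IVO MII over GV, MKNK1, so that 16.7% and 8.33% of the list were called. RHEB, the GTPase that activates mTOR, averaged 269 CPM in IVM MII and 46.0 CPM in GV libraries (2.55 ± 0.47, adjusted p = 0.00436). In IVM MII over IVO MII, no gene of the eIF2 kinase or mTOR list was called.

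Of 12 termination, recycling and ribosome rescue genes, IVM MII over GV had 3 higher and 2 lower, and IVO MII over GV had 3 higher and 1 lower, which is 41.7% and 33.3% of the list, near the shares of all genes. NEMF and LTN1, which together mark the unfinished chains of stalled ribosomes for destruction, were among the higher ones. NEMF averaged 581 CPM in IVM MII, 802 CPM in IVO MII and 164 CPM in GV libraries (1.82 ± 0.32, adjusted p = 0.00341, and 2.29 ± 0.34, adjusted p = 0.00294, over GV). Of 16 poly(A)- and cap-associated partner genes, IVM MII over GV had 5 higher and 2 lower, and IVO MII over GV had 4 higher and 1 lower, 43.8% and 31.2% of the list. PABPC1, the general poly(A)-binding protein, averaged 30.2 CPM in IVM MII, 32.3 CPM in IVO MII and 6.64 CPM in GV libraries (2.19 ± 0.43, adjusted p = 0.00554, and 2.28 ± 0.45, adjusted p = 0.00757, over GV). PABPC1L, its oocyte form, was the 1 gene of the 6 lists called in IVM MII over IVO MII, where 1.47% of all genes were called. It averaged 2.12 CPM in IVM MII, 22.6 CPM in IVO MII and 40.9 CPM in GV libraries (-3.41 ± 0.51, adjusted p = 0.0271, over IVO MII). Without the first or the second IVM MII library no gene of the whole table was called in that comparison, so the PABPC1L call was lost. Genes of the 6 lists are otherwise given from the fit reported only.

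Of 8 genes that modify eIF5A and eEF2, 1 was higher and 5 were lower in IVM MII over GV, and 3 were lower in IVO MII over GV, 75.0% and 37.5% of the list. DHPS, the enzyme that begins the hypusine modification of eIF5A, averaged 2.46 CPM in IVM MII, 0.689 CPM in IVO MII and 21.4 CPM in GV libraries (-3.12 ± 0.77, adjusted p = 0.0143, and -4.98 ± 0.99, adjusted p = 0.00756, over GV). Of 9 mitochondrial translation factor genes, 1 was higher and 1 lower in IVM MII over GV, and 1 was higher and 2 lower in IVO MII over GV, 22.2% and 33.3% of the list. GFM1, a mitochondrial elongation factor, was the higher one in each, at 136 CPM in IVM MII, 79.4 CPM in IVO MII and 33.1 CPM in GV libraries (2.04 ± 0.34, adjusted p = 0.00293, and 1.26 ± 0.35, adjusted p = 0.0271, over GV).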

How the data were processed

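RNA had been reverse transcribed from poly(A) tails with template switching, amplified, tagmented and sequenced with paired ends, per the labels' protocols, so a count also depends on the tail. The authors deposited raw counts per gene. The submitters' processing notes name featureCounts 2.0.1, Bowtie2 2.4.5, Trim Galore 0.6.7, SAMtools 1.15.1 and DESeq2. Not given in the sources used here are build, strand setting and treatment of multiply matching reads. Bowtie2 does not place a read across an intron, so genes with copies or overlapping neighbours are uncertain.

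10 broken lines of the count table were left out, which left 28161 genes. All 7 libraries entered 1 edgeR 4.0.16 quasi-likelihood fit (R 4.3.3, TMM, filterByExpr), with 3 two-sided comparisons and Benjamini-Hochberg adjustment over the 16374 genes tested. Upper quartile and RLE scaling, DESeq2 1.42.0, limma 3.58.1 voom, no filter, a replicate block, the 2 groups alone and each library left out were tried. Unscaled library totals and a crossed block were added after the data were seen. The fit was also run on simulated counts, with large changes in well-counted genes and the same spread for every gene. That spread need not match these libraries, so the run does not show how well changes were found here. All 55 symbols matched a RefSeq gene table, used for names only. Values after ± are SDs between libraries for levels and shares, and SEs for fold changes. Counting floors cover counting error only. The genes and lists were chosen with earlier results of these data known. Genes given in every library were those called between IVM MII and IVO MII, the 8 highest and 8 lowest fold changes over GV among called genes with at least 20 CPM, the highest per kb in each role, and 13 fixed ones, and the other called genes were added after their values were seen.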

Additional observations from a re-analysis of the deposited data

How the results depend on the processing

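Fold changes of the genes with an unadjusted p under 0.05 kept their sign in the settings run; EEF2KMT in IVM MII over IVO MII had no value in the fit on the 2 groups alone. Genes called higher in IVM MII over IVO MII numbered 4 with DESeq2, 1 with limma voom, 2 without the filter on low counts and 6 with the replicate number as a block, beside 7.55%, 1.7%, 2.13% and 4.78% of all genes. They numbered 0 to 6 when 1 IVM MII library was left out, beside 0% to 4.86% of all genes, against 0 in the fit reported. Genes called lower there numbered 2 with DESeq2, beside 4.95% of all genes. Leaving out 1 library gave 3 to 11 higher and 5 to 14 lower calls in IVO MII over GV, and 7 to 16 higher and 6 to 17 lower calls in IVM MII over GV. In both comparisons the lowest counts went with the lowest shares of all genes called, and the highest counts with the highest shares. Where leaving out a library left a group with 1 library, that library was assumed to vary like the others. Unscaled library totals gave 7 higher calls in IVM MII over GV, beside 9.82% of all genes, and the causes of these shifts were not tested.

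Replicate numbers were not used to pair libraries in the fit reported, and whether libraries were paired could not be decided. In a group of 2 libraries the deviations from the group mean mirror each other, so their correlations cannot exclude pairing. The highest correlation, 0.406, was between the second IVO MII and the third IVM MII library. Deviations of same-numbered libraries correlated at -0.234 between GV and IVO MII, -0.171 and 0.11 between GV and IVM MII, and 0.353 and -0.177 between IVO MII and IVM MII. The replicate block gave 10 higher and 13 lower calls in IVO MII over GV, beside 15.3% and 14.8% of all genes. It gave 14 higher and 15 lower in IVM MII over GV, beside 18.2% and 17.3%, and EIF4G3 lost its call there (adjusted p = 0.0584). The 6 genes that the block called in IVM MII over IVO MII were EEF1AKMT1, EEF1E1, EIF6, EIF2S2, EIF1B and EIF1AX (adjusted p = 0.0141 to 0.0417). Number 3 occurs only in IVM MII, so the block fits the third IVM MII library on its own. That library then adds nothing to the fold changes beyond its part in the filter and the scaling. The same 6 genes were called with the third IVM MII library left out, so the block is not a separate check of them. With the numbers crossed, IVO MII over GV had 10 higher and 14 lower calls, beside 16.4% and 18.8% of all genes. Upper quartile scaling moved the median of all genes in IVM MII over IVO MII to -0.11 and in IVM MII over GV to -0.21, and RLE scaling moved it to -0.24 in IVM MII over GV. With 2 or 3 libraries a group, genes under a few CPM were measured least precisely.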
